A study of Mus musculus with 8 samples.

Results

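The expression of 10 macrophage genes is described here: the lysozymes Lyz1 and Lyz2, the scavenger and uptake receptors Mrc1, Cd163, Msr1, Marco and Cd68, the complement chains C1qa and C1qb, and the enzyme Arg1. They were chosen by name, and every non-control probe whose RefSeq accession maps to one of these symbols or a synonym was kept. Of these genes 9 were matched, by 10 probes out of 55681 on the array. Msr1 has 2 probes, the other matched genes have 1 each, and all 10 passed the filter on dim probes. Cd68 has no matched probe and no value is given for it.

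Total RNA from 8 samples was hybridised to 1-colour Agilent mouse expression arrays, 4 in each group. The samples came from tumours grown from 4T1 cells, a mammary carcinoma line of BALB/c mice, infected in culture at a multiplicity of infection of 50 for 24 h. Control samples came from cells given an empty adenovirus, and PRH-labelled samples from cells given an adenovirus carrying PRH, the homeobox protein of the gene Hhex. In both groups the infected cells were placed in the no. 3 fat pad of female BALB/c mice aged 6 to 8 weeks and the tumours were taken on day 22. BALB/c mice keep their own immune cells, so macrophages in the tumours would be the host's. Both groups carry the mouse numbers 1, 2, 3 and 5. The labels conflict on the material: the series text gives RNA from whole tumours and the extraction protocol gives endothelial isolates.

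Macrophages take up debris, microbes and modified lipoproteins through scavenger receptors and digest them in lysosomes. Lysozyme cuts the peptidoglycan of bacterial walls and is made in quantity by macrophages and neutrophils, and in mice Lyz2 is the myeloid gene while Lyz1 is best known from Paneth cells of the intestine. C1q opens the classical complement pathway, and tissue macrophages are a main source of its 3 chains. In tumours, mannose receptor and arginase are widely used as markers of macrophages in an alternatively activated state.

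The upstream sequences are shown because Lyz1 and Lyz2 are neighbouring copies on chromosome 10 that share much of theirs, while Mrc1 and C1qb share a short stretch of letters with them. Each is the 250 bases before the RefSeq start on the gene's own strand, 5′ to 3′, in build GRCm38.p6. Capitals mark the element AGGAAGT of ETS family factors, which here is found on the opposite strand and so reads ACTTCCT. Lyz1 lies at chr10:117292869-117293118 (minus strand), Lyz2 at chr10:117282273-117282522 (minus), Mrc1 at chr2:14229164-14229413 (plus) and C1qb at chr4:136886201-136886450 (minus).
Lyz1: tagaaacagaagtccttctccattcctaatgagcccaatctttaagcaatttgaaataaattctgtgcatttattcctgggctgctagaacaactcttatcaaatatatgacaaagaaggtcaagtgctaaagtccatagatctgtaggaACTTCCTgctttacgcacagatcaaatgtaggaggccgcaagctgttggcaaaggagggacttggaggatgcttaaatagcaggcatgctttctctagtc
Lyz2: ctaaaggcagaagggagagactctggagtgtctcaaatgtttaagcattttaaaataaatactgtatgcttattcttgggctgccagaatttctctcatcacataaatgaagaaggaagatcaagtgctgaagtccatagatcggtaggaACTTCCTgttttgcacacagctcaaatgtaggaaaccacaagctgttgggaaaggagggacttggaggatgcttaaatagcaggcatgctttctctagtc
Mrc1: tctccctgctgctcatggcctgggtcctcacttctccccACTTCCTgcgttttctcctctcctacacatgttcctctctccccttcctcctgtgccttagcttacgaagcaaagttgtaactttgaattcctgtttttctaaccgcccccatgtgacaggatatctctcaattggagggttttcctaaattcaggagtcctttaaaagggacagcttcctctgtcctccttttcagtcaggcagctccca
C1qb: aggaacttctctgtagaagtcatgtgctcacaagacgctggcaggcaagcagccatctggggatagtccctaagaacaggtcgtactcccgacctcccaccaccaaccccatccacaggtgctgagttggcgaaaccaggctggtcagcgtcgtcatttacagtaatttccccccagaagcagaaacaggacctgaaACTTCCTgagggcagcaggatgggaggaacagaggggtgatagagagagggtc

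The Lyz1 and Lyz2 sequences paired at 200 identical and 48 mismatched bases with 4 gap positions, an identity of 80.6% over paired bases. In both, the first base of the marked element lay 100 bases before the start, which shows that the element is kept at the same place in the 2 copies. It lay 211 bases upstream in Mrc1 and 53 in C1qb. Of the 10 genes 7 have an upstream sequence in the table, and 4 of these hold AGGAAGT on either strand, against 7.69% of 32851 promoters cut to the same length. The letters were chosen after the sequences had been read, so the count is a description only. The shorter PU.1 core GAGGAA, part of which overlaps the element, was in 4 of the 7 and in 23.3% of all promoters. A C/EBP-like TTGCNNAA was in 2 of the 7 and 9.56% of all, and TATAAA was in none of the 7 and 12.4% of all. Of the 4 genes shown, 3 were lower in PRH-labelled samples and C1qb did not pass the test.

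All values are log2 of the scanner's processed signal minus log2 of that array's 75th percentile, so 0 is the level of a probe at that percentile. Probes bind with different strength, so levels of different genes are not set against each other. A probe was called where limma gave an adjusted p under 0.05 over all 39463 tested probes. The 75th percentile signal was 1003 to 1283 on control arrays and 679 to 762 on those labelled PRH. Well above background were 64.2% to 69.8% of probes on controls and 72.2% to 73.9% on those labelled PRH, also without overlap. All 8 arrays are on 1 slide, with the groups in different slide columns, so an effect of slide column cannot be told apart from the label. With 4 arrays a group, their number limits the precision, and the smallest exact permutation p is 0.0286. The control array of mouse 1 stood apart: the summed level of 7 B cell markers was 26.5 there and 0.76 to 0.86 on the other controls, and that of 8 adipocyte markers was 111 against 5.01 to 13.7.

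The target gene went against the label. Hhex was at -0.54, -0.33, -0.69 and -0.78 on the control arrays of mice 1, 2, 3 and 5, and at -1.71, -1.46, -1.79 and -1.72 on the PRH-labelled arrays. It was lower by 2.13-fold (difference -1.09, SE 0.15, limma adjusted p = 0.00674), with no overlap. The samples are therefore called PRH-labelled, and every direction below rests on that label.

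Lyz1, Lyz2 and Mrc1, 3 of the 9 measured genes, were lower in PRH-labelled samples, and none was higher (limma, 3 with an unadjusted p under 0.05). The other 6, Msr1, Marco, Cd163, C1qa, C1qb and Arg1, overlapped between groups and did not pass. The count of 3 was 1 without the PRH-labelled array of mouse 2, 3 or 5, with Lyz2 left. Over all tested probes 26.2% were called, 16.1% higher and 10.1% lower. Over the 16377 named genes tested, each by its brightest probe, 23.9% were called, 10.7% higher and 13.1% lower. An unadjusted p under 0.05 (limma) was found for 6285 of these 16377 genes and for 15465 of the 39463 tested probes. The median difference of the 9 genes was -0.36, beside -0.02 over named genes and 0.22 over all tested probes. That median is the value of Cd163 itself, a probe close to background. The groups did not overlap for 3 of the 9 genes, all lower, while 31.5% of all tested probes did not overlap in either direction and 12.7% did so with PRH-labelled samples lower.

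**Figure D1:**
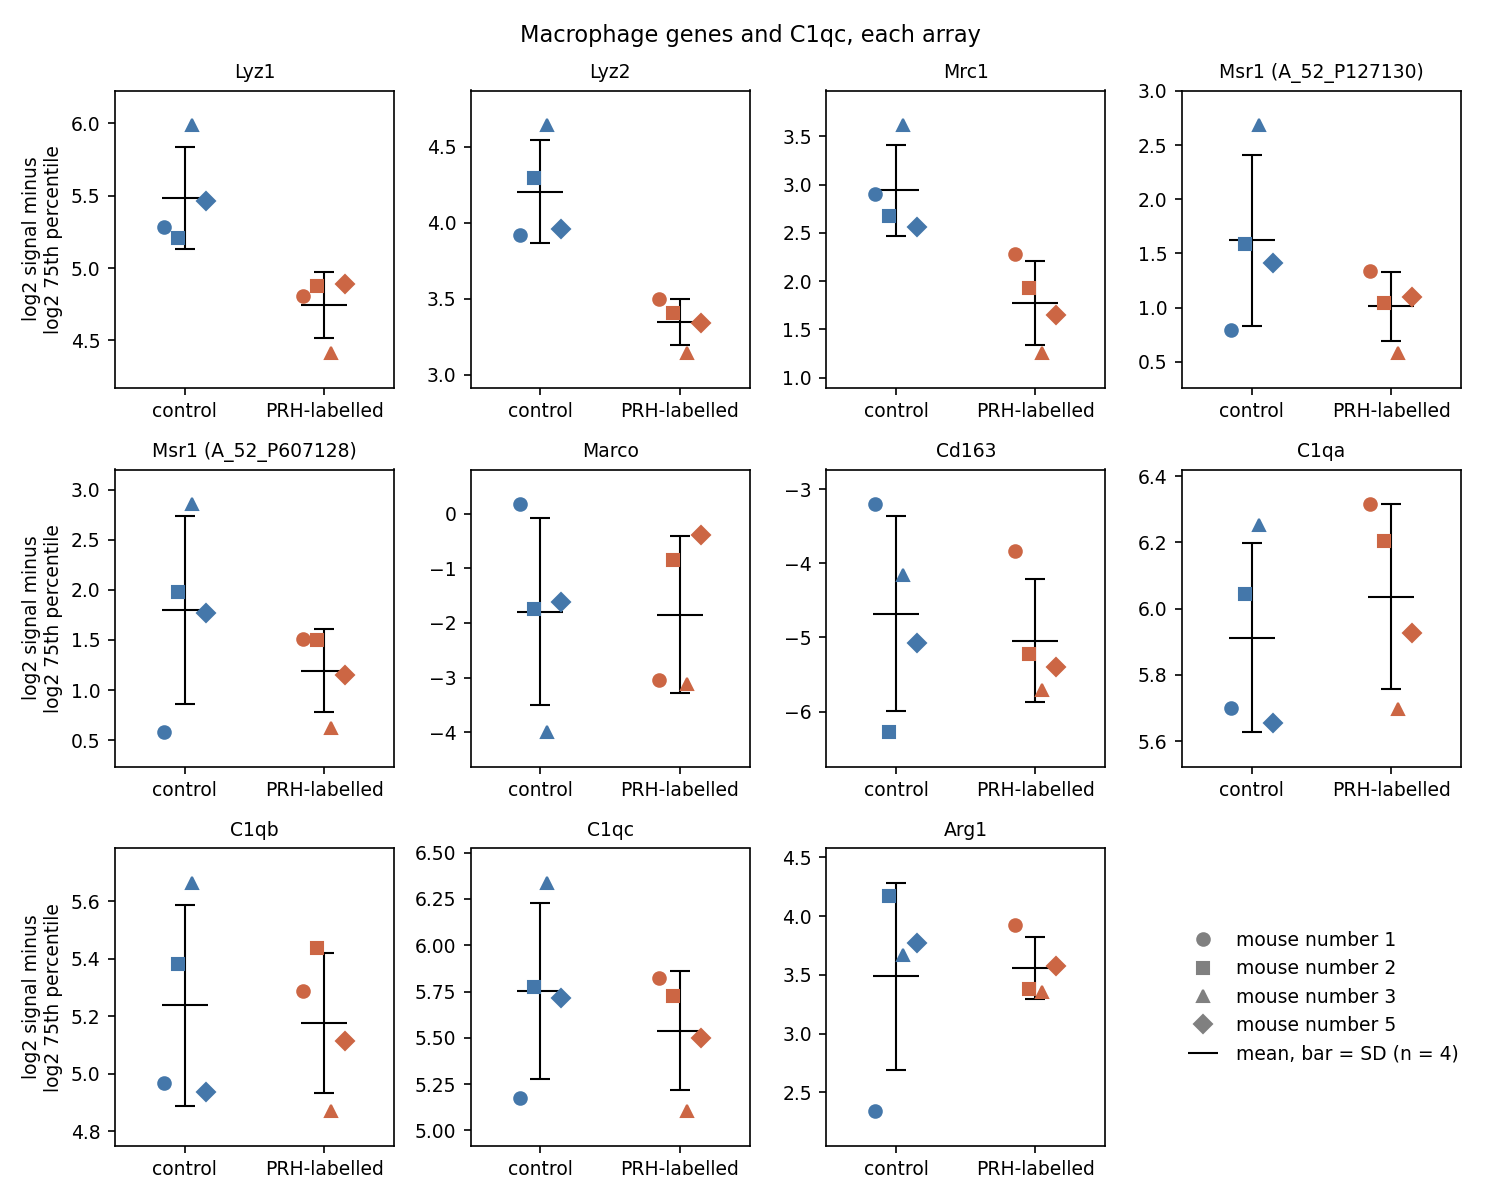
Level of each probe on each array (log2 signal minus log2 of the array's 75th percentile), by group, with the mouse number as the symbol and mean and SD (n = 4) as lines. For Lyz1, Lyz2 and Mrc1 the 4 PRH-labelled arrays lie below all 4 control arrays, and mouse 3 is often the highest control and the lowest PRH-labelled array.

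Lyz2, the lysozyme of myeloid cells, was at 3.92, 4.29, 4.64 and 3.96 on the control arrays of mice 1, 2, 3 and 5. On the PRH-labelled arrays of the same numbers it was at 3.50, 3.40, 3.14 and 3.34. Every PRH-labelled array was below every control array. The difference was -0.86 (SE 0.19, 95% interval -1.30 to -0.41), a 1.81-fold lower level (limma adjusted p = 0.0167). It was the only one of the 3 lower genes that passed with each array left out in turn, with adjusted p between 0.0101 and 0.0481.

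Lyz1, its neighbour, was at 5.28, 5.21, 5.99 and 5.46 on control arrays and at 4.80, 4.88, 4.41 and 4.89 on PRH-labelled arrays. Again no PRH-labelled array reached the lowest control array, though the gap between the groups was narrower than for Lyz2. The level was 1.67-fold lower (difference -0.74, SE 0.21, 95% interval -1.23 to -0.25, limma adjusted p = 0.0368). This call was fragile: it held without the control array of mouse 1 (0.0341) or of mouse 2 (0.0492), and was lost without any one of the other 6 arrays (up to 0.0819), with mouse number as a block (0.0728) and with no filter on dim probes (0.0532). Lyz1 and Lyz2 are close copies and the probe sequences were not used here, so how far each probe reads the other gene's RNA is uncertain.

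Mrc1, the mannose receptor, which binds and internalises glycoproteins ending in mannose, was at 2.90, 2.68, 3.62 and 2.56 on control arrays. It was at 2.28, 1.93, 1.25 and 1.65 on PRH-labelled arrays. The groups did not overlap, and this was the widest difference of the 3 genes: -1.16 (SE 0.30, 95% interval -1.86 to -0.46), or 2.24-fold lower (limma adjusted p = 0.0268). The call was lost without the PRH-labelled array of mouse 2 (0.0545), of mouse 3 (0.0585) or of mouse 5 (0.0684). In these bulk samples, fewer cells of a type and less RNA per cell cannot be told apart.

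Deviations from the group means, over all tested probes, correlated positively between same-numbered arrays, so differences were also read within mouse numbers. Neither array of mouse 5 correlated best with its own number. The labels do not say whether a number is 1 animal in both groups. Each number also holds the same slide row in both groups, so mouse number and slide row cannot be told apart. Lyz1 differed by -0.48, -0.33, -1.58 and -0.57 in mice 1, 2, 3 and 5. Lyz2 differed by -0.42, -0.89, -1.50 and -0.62, and Mrc1 by -0.62, -0.75, -2.37 and -0.92. All 3 genes were thus lower in 4 of 4 numbers, and mouse 3 showed the widest gap each time. With mouse number as a block, Lyz2 (limma adjusted p = 0.0364) and Mrc1 (0.0496) still passed.

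The PRH-labelled array of mouse 3 was the lowest of its group for 9 of the 9 genes, and the control array of mouse 3 was the highest of its group for 6. The PRH-labelled array of mouse 1 was the highest of its group for 6. Without both arrays of mouse 3, a setting chosen after seeing the data, Lyz2 differed by -0.64 (limma adjusted p = 0.0496), Lyz1 by -0.46 (0.0733) and Mrc1 by -0.76 (0.0577). Then 1 of the 9 genes passed, and all 3 differences kept their direction.

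Msr1, the class A scavenger receptor of modified lipoproteins, has 2 probes that gave near-equal differences. The brighter probe read 0.58, 1.98, 2.86 and 1.77 on control arrays and 1.51, 1.50, 0.62 and 1.15 on PRH-labelled arrays. The other read 0.79, 1.59, 2.69 and 1.41 against 1.34, 1.05, 0.58 and 1.10. The controls spread widely, with mouse 1 lowest and mouse 3 highest, and enclosed all the PRH-labelled values of the brighter probe. The differences were -0.60 (SE 0.46, limma adjusted p = 0.364) and -0.61 (SE 0.39, 0.283). The gap between the 2 probes was 0.18 ± 0.28 in controls and 0.18 ± 0.19 in PRH-labelled samples (SD, n = 4, exact permutation p = 0.971).

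Marco, a class A receptor of bacteria and particles, varied more between arrays than between groups. It was at 0.18, -1.74, -4.00 and -1.62 on control arrays and at -3.05, -0.84, -3.11 and -0.38 on PRH-labelled arrays. Neither group was above the other as a whole, and the difference was -0.05 with an interval of -2.36 to 2.25 (limma adjusted p = 0.973). Without the control array of mouse 1 the difference was 0.61.

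Cd163, the haemoglobin-haptoglobin receptor, was close to background, being well above it on 3 of the 4 controls and on 2 of the 4 other arrays. It was at -3.20, -6.28, -4.15 and -5.08 on control arrays and at -3.83, -5.22, -5.71 and -5.40 on PRH-labelled arrays. The groups overlapped (difference -0.36, interval -1.98 to 1.25, limma adjusted p = 0.711), and the interval leaves room for a change of over 2-fold in either direction. Without the control array of mouse 1 the difference was 0.13.

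C1qa and C1qb, chains of the recognition molecule of complement C1, were bright on every array and did not pass. C1qa was at 5.70, 6.04, 6.25 and 5.65 on control arrays and at 6.32, 6.20, 5.70 and 5.93 on PRH-labelled arrays. C1qb was at 4.97, 5.38, 5.66 and 4.94 against 5.29, 5.44, 4.87 and 5.12. The groups overlapped for both, with mouse 3 the highest control and the lowest PRH-labelled array. The difference was 0.12 for C1qa (interval -0.35 to 0.59, limma adjusted p = 0.668) and -0.06 for C1qb (interval -0.56 to 0.43, 0.846). C1qc, the third chain and not one of the 10 genes, was at 5.18, 5.78, 6.34 and 5.72 against 5.82, 5.73, 5.10 and 5.50, a difference of -0.21 (interval -0.84 to 0.42, 0.581).

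Arg1, which splits arginine into ornithine and urea, was at 2.34, 4.17, 3.67 and 3.77 on control arrays and at 3.93, 3.38, 3.36 and 3.57 on PRH-labelled arrays. The control array of mouse 1 was below all 7 others, and the remaining arrays were interleaved. The difference was 0.07 (interval -0.82 to 0.96, limma adjusted p = 0.901), and -0.31 without that array.

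**Figure D2:**
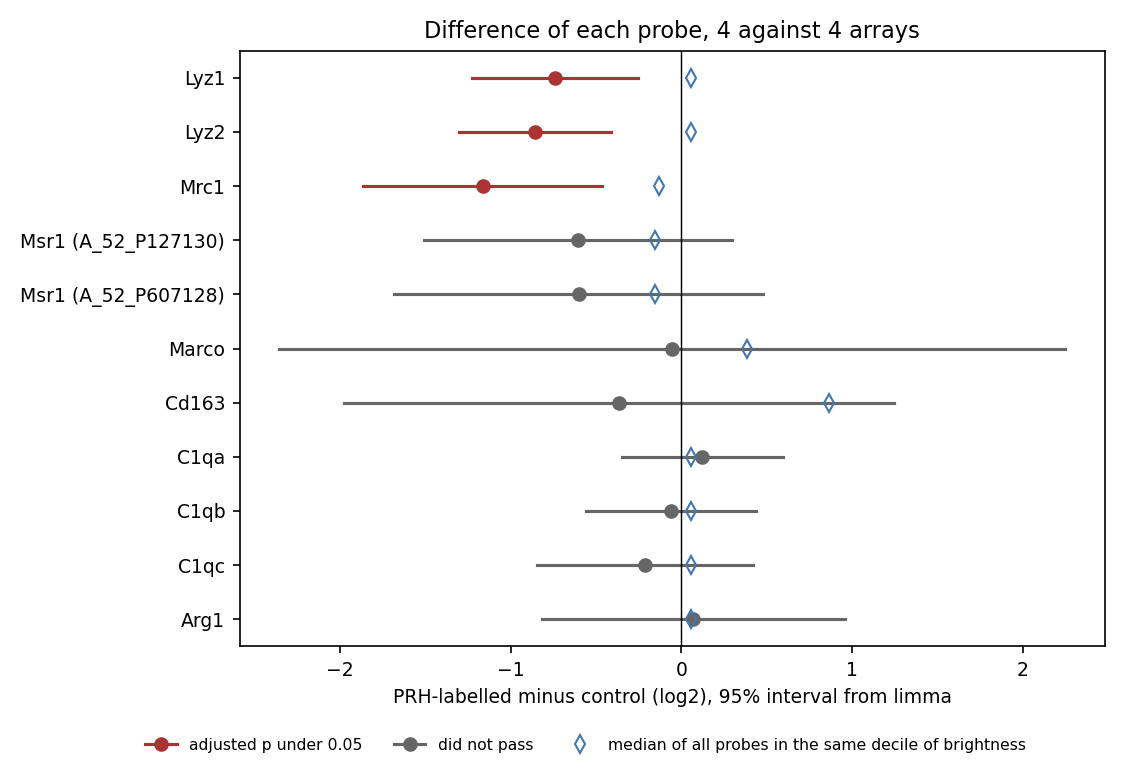
PRH-labelled minus control difference (log2) of each probe with its 95% interval from limma, and the median difference of all probes in the same decile of brightness as open diamonds. Lyz1, Lyz2 and Mrc1 have intervals wholly below 0, and those of the other probes cross 0.

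Dim probes as a class read higher on PRH-labelled arrays, so each gene was also set beside probes of its own brightness. The median difference was 0.06 in the decile that holds Lyz1, Lyz2, C1qa, C1qb and Arg1, -0.13 in that of Mrc1 and -0.16 in that of Msr1. It was 0.38 in the decile of Marco and 0.87 in that of Cd163. For Lyz1, Lyz2 and Mrc1 the whole interval lay below the median of their own decile.

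A difference between 2 probes within an array is the same whatever constant scales that array. The gap of Lyz1 over Lyz2 was 1.28 ± 0.25 in controls and 1.40 ± 0.13 in PRH-labelled samples (SD, n = 4, exact two-sided permutation p = 0.571). The gap of C1qa over C1qb was 0.67 ± 0.06 and 0.86 ± 0.12, without overlap (exact permutation p = 0.0286, 0.0857 adjusted over the 3 planned pairs, the Msr1 probes among them).

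The lower genes were also set against each C1q chain, in 6 further pairs chosen after seeing the data. Since these genes were picked for being lower and the chains for not passing, the values are a description with no test. Lyz2 minus C1qb was -1.05, -1.09, -1.02 and -0.98 on control arrays and -1.79, -2.04, -1.73 and -1.78 on PRH-labelled arrays. The controls hardly spread (SD 0.05) although both genes differed between mouse numbers, and every PRH-labelled array was lower. The change was -0.80 for this pair and -0.98 for Lyz2 minus C1qa. It was -0.86 for Lyz1 minus C1qa and -0.68 for Lyz1 minus C1qb, and -1.29 and -1.10 for Mrc1 minus C1qa and minus C1qb. None of the 6 overlapped. From the authors' values the 6 changes kept their direction and were smaller (Lyz2 minus C1qb -0.73).

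**Figure D3:**
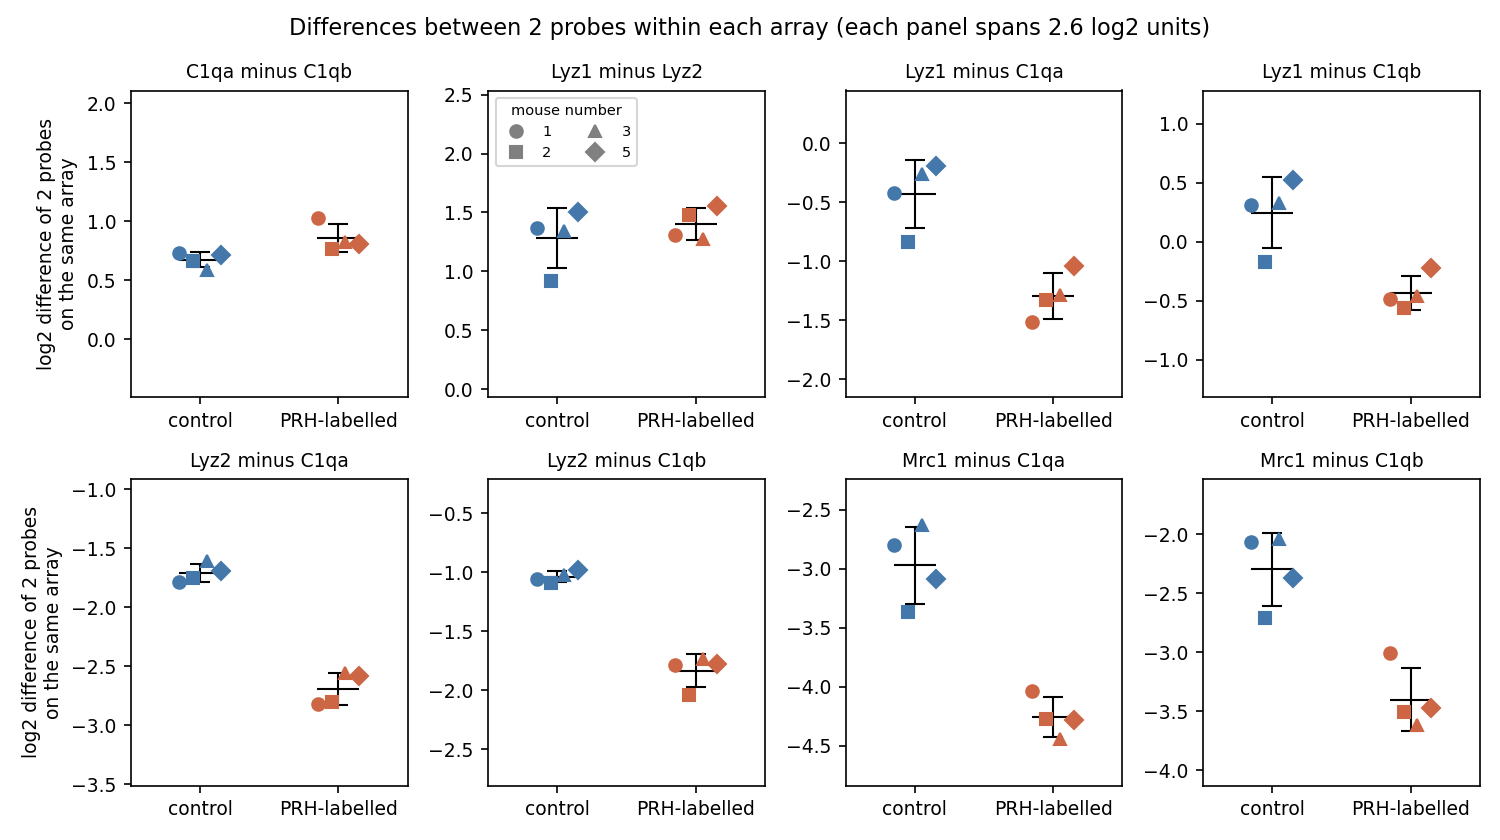
Log2 difference between 2 probes on the same array, by group, with mouse number as the symbol and mean and SD (n = 4) as lines, every panel on the same span. The gap of Lyz1 over Lyz2 overlaps between groups, while Lyz1, Lyz2 and Mrc1 lie lower against C1qa and C1qb on all 4 PRH-labelled arrays.

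The size of each difference depended on how the arrays were scaled. Lyz1, Lyz2 and Mrc1 were lower under all 7 scalings, and passed under all but centring on spike-in probes, where limma called 3 of all tested probes. Their differences ranged from -1.33 to -0.58 for Lyz1, from -1.45 to -0.78 for Lyz2 and from -1.76 to -0.87 for Mrc1 over the other 6 scalings. Without any scaling the median of all tested probes was -0.37, and C1qa and C1qb were at -0.47 and -0.65. Over all tested probes, 6354 were higher and 3973 lower at the 75th percentile scaling, 3017 and 10470 with median centring, 4468 and 6224 with quantile normalization, 4049 and 5823 with normexp, 3989 and 5886 from the authors' values, and 2233 and 13025 without scaling. The sign for C1qa and Arg1 rested on the scaling, and that for C1qb was below 0 under all 7.

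**Figure D4:**
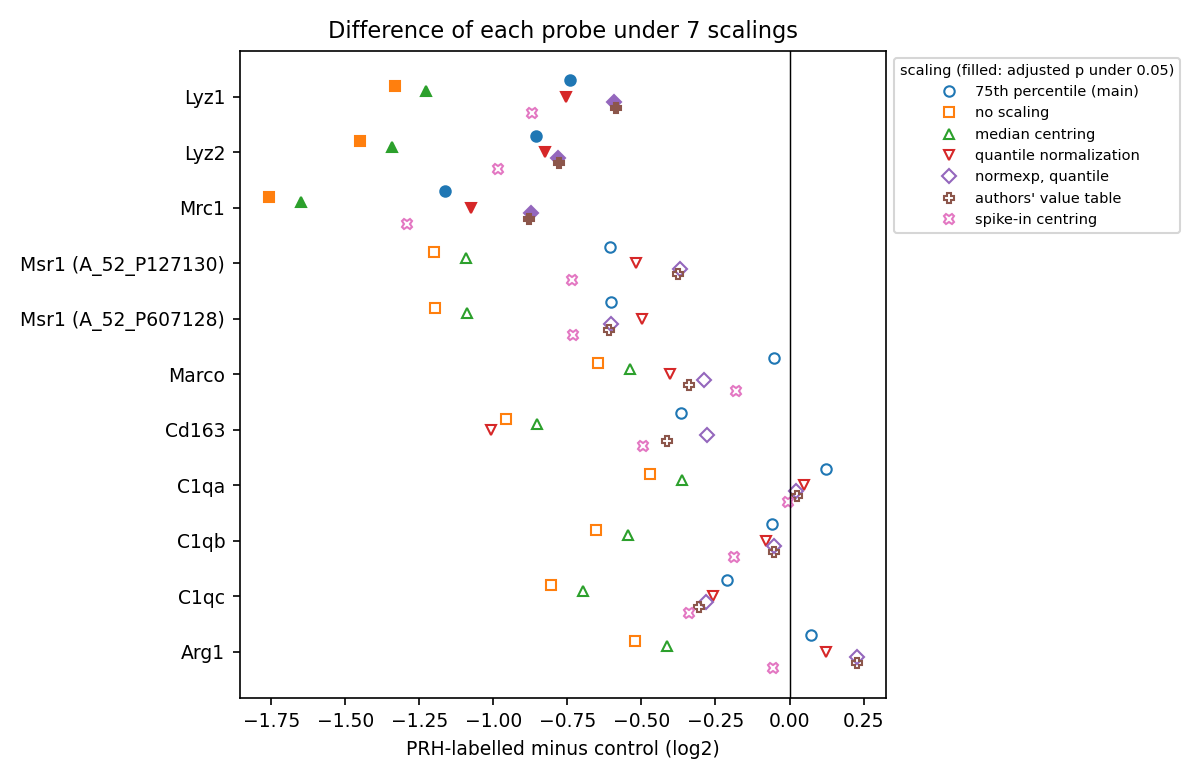
PRH-labelled minus control difference (log2) of each probe under 7 scalings, with filled symbols where the limma adjusted p was under 0.05. Lyz1, Lyz2 and Mrc1 are below 0 under each scaling and are open only for spike-in centring, while C1qa and Arg1 fall on both sides of 0.

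Of 25 further genes of macrophage identity, all tested, 3 were lower and none higher (limma, 6 with an unadjusted p under 0.05), with a median of -0.15. Over all named genes 13.1% were lower and 10.7% higher, so 3 of 25 is near the share of all genes. The same shares stand beside each list below. Among the lower genes were the transcription factor Maf and the monocyte chemokine receptor Ccr2. Maf fell by 1.26 (limma adjusted p = 0.00681) and Ccr2 by 1.35 (0.00741), on the log2 scale. Both held with any 1 array left out and with the replicate block. The receptor of macrophage growth factor, Csf1r, was at 5.92 ± 0.29 and 5.93 ± 0.20 (SD, n = 4) by its brightest probe, while its other probes differed by -0.60, which passed (limma adjusted p = 0.0332), and -0.52 (0.214). Adgre1, the gene of a surface receptor used to mark mouse macrophages, differed by 0.02 by its brightest probe and by -0.71 by another, which passed (0.0281). The summed level of the 25 overlapped, at 669 to 840 in controls and 662 to 846 in PRH-labelled samples. That sum differed by 0.06 (log2) at the main setting, and by -0.54 to -0.06 under the 6 other scalings. It was lower without overlap when no scaling was used. The mean log2 level, in which bright genes weigh less, was 3.00 ± 0.26 and 2.70 ± 0.21 (SD, n = 4), and also overlapped.

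Of 21 other scavenger receptors tested, 2 were higher and 2 lower, with a median of -0.03. Scarb1, the receptor of high-density lipoprotein, fell by 0.79 (limma adjusted p = 0.0073) and Colec12 by 0.88 (0.0114). Scarf2 rose by 0.64 (0.0171) and Ssc4d by 0.98 (0.0174), calls that each held under 3 of the 6 other scalings and not with median centring. Of 12 relatives of the mannose receptor and macrophage lectins, 2 were lower and none higher, with a median of -0.51. These were the phospholipase receptor Pla2r1 (-1.03, 0.0168) and Clec9a (-1.19, 0.0249), a lectin of cross-presenting dendritic cells. Pla2r1 was dim, well above background on 4 of 4 control arrays and on 2 of 4 PRH-labelled arrays. Its difference was -1.71 to -0.30 under the 6 other scalings, and it passed under 5 of them.

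Of 9 other genes listed for the lysozyme and alpha-lactalbumin family, 5 were tested, and 2 of these were higher and none lower. Spaca3 of the sperm acrosome was well above background on 1 of 4 control arrays and on 4 of 4 PRH-labelled arrays, so it entered the test through the group where it is high, and Spaca5 was above background on 2 and 3. The count and the median of 1.10 therefore describe the dim probes that entered and are not set against Lyz1 and Lyz2. That median was 0.42 to 0.97 under the 6 other scalings, and the dim decile that holds Cd163 had a median of 0.87. Lyzl6 was at 0.70 (limma adjusted p = 0.0287) and passed under none of the 6 other scalings. Of 13 genes of the C1 complex and C1q receptors, C1qc among them, none passed by its brightest probe, also at an unadjusted p under 0.05 (limma), and the median was 0.01. Other probes of C1s2 (1.10, adjusted p = 0.0167) and C1ra (-0.72, 0.0488) passed.

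Of 21 genes of arginine and polyamine metabolism, the pathway of Arg1, 1 was higher and 2 lower, with a median of 0.05. The polyamine acetylase Sat1 fell by 0.92 (limma adjusted p = 0.0107), ornithine aminotransferase Oat fell by 0.80 (0.0145) and the dim Nos1 rose by 1.21 (0.0113). Nos1 was well above background on 3 of 4 control arrays and passed under 2 of the 6 other scalings. Of 14 genes of haemoglobin and haem clearance, 1 was lower, the transferrin receptor Tfrc (-0.69, 0.0178). Of 19 genes of alternative activation, 1 was lower, Klf4 (-0.75, 0.0206). Of 15 of classical activation, 2 were higher, among them Tnf (0.70, 0.0148), which passed under no other scaling. Of 20 endolysosome genes, Npc1 (-0.69, 0.0134) and Lamp2 (-0.57, 0.0472) were lower. Ctsd was higher by its brightest probe (0.55, 0.0355) and lower by another (-0.68, 0.0344). With 1 array left out in turn, the calls held in 4 of 8 fits for Klf4, 3 for Clec9a, 2 for Lyzl6 and Ctsd, and 1 for Lamp2. Among genes of the lists from scavenger receptors to endolysosome not called by their brightest probe, other probes passed, beside those of C1s2 and C1ra above, for Lrp8 (-1.28, limma adjusted p = 0.0451), Siglec1 (0.98, 0.0268), Odc1 (-1.13, 0.043), Azin1 (-0.99, 0.0221), Sms (-0.66, 0.0379), Hmox1 (0.68, 0.0171) and Tnfsf12 (-0.51, 0.0439). With mouse number as a block, Lamp2 (limma adjusted p = 0.0636) and Ctsd (0.0593) did not pass.

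Markers of other cells were read beside these results, since neutrophils also make lysozyme. Of 12 neutrophil markers, Csf3r was higher (0.96, limma adjusted p = 0.0233) and Retnlg lower (-1.15, 0.039), each held in 2 of 8 fits with 1 array left out, and their summed level overlapped, at 31.5 to 186 in controls and 84.0 to 132 in PRH-labelled samples. Of 5 Paneth cell markers, the other known source of Lyz1, none passed by the brightest probe, and other probes of Itln1 (-1.35, 0.0241) and Defa3 (1.80, 0.0077) passed in opposite directions. Their sum was 4.43 on the control array of mouse 1, 0.91 to 1.18 on the other controls and 0.87 to 1.11 in PRH-labelled samples. Reg3g was at 1.82 on the control array of mouse 1 and at -3.41 to -1.80 on the other controls. With that array included, the sum was lower without overlap under 5 of the 6 other scalings (-1.11 to -0.63, log2), all but spike-in centring. Its part in the lower Lyz1 was not tested. Of 12 epithelial and 4T1 markers, Krt14 (1.93, 0.0188) and Krt18 (0.52, 0.026) were higher and none passed as lower. Krt18 passed under none of the 6 other scalings and in 3 of 8 fits with 1 array left out. The median of the 12 was 0.48, while Krt8 was lower without overlap (-0.44) and did not pass (limma adjusted p = 0.0763). The sum of the 12 did not overlap, at 315 to 419 in controls and 433 to 572 in PRH-labelled samples. This sum did overlap under each of the 6 other scalings, and differed by -0.07 (log2) with no scaling. Its part in the lower Lyz1, Lyz2 and Mrc1 was not tested.

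Of 9 dendritic cell markers, 2 were higher and 2 lower, of 11 endothelial markers 1 was higher (Kdr), and of 10 fibroblast markers 1 was lower (Pdgfra). Other probes went the opposite way for Zbtb46 (1.17 by the brightest, -0.86 by another, limma adjusted p = 0.0187 for the other), for Flt3 (-1.41 and 1.31, 0.00865) for Kdr (1.17 and -0.48, 0.178) and for Siglech (0.66 and -1.19, 0.263). With 1 array left out, Flt3 and Siglech each passed in 1 of 8 fits and Kdr in 2. By the brightest probe, none passed among 9 T cell, 7 B cell, 7 mast cell and basophil and 8 adipocyte markers (limma, with 1, 1, 0 and 0 at an unadjusted p under 0.05, and 0 of the Paneth cell markers), while another probe of Cd8a passed (-0.97, 0.0406). The endothelial markers Pecam1 and Cdh5 and the epithelial markers Epcam and Krt18 were each well above background on 4 of 4 arrays of both groups, so the arrays held RNA of both cell types.

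For each gene the 3 named genes with the most similar course over the 8 arrays were found, after each value was centred on its group mean, among 16376 genes. The likeness, Pearson's r over 8 arrays that share slide and scaling, is a description only, and with so many genes compared the highest values were 0.978 to 0.995 for every gene. They were Tatdn3, Adgrg5 and Adamts14 for Lyz1, Dpp9, Gm5176 and Mthfd2 for Lyz2, and Sla, Lst1 and Jaml for Mrc1. For Msr1 they were Sirpb1a, Nmd3 and Cxcl10, for Marco Ccl19, Sox1ot and Plekha4, and for Cd163 Cit, Igfl3 and Spns3. For C1qa they were Xpo6, Alg3 and Maf, for C1qb Med27, Pde12 and Vamp4, and for Arg1 Dstn, Trmt1l and Poglut3.

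The macrophage genes were also compared with each other in the same way, as a description. Lyz2 followed C1qb (r = 0.94) and C1qa (0.92) closely within groups, although between groups it passed the test and they did not. Lyz1 followed Lyz2 at 0.74 and Mrc1 at 0.79, and Msr1 followed C1qc at 0.98. By rank among 16376 genes, C1qb was at 78 and C1qa at 165 for Lyz2, and C1qc at 24 for Msr1. For Lyz1, Lyz2 was only at 977 and Mrc1 at 601. Marco had negative values with Lyz2 (-0.58) and Msr1 (-0.61), and Cd163 had -0.56 with Arg1. At ranks 13448, 13762 and 12305 of 16376, these were not the lowest values.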

How the data were processed

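Each array is 1 colour, scanned on 1 slide. The deposited processed signal is an intensity that the scanner software had background-corrected (Agilent Feature Extraction 10.7.3.1 per the file headers, 9.1 per the submitters' processing notes), on a design of build mm9 per the file headers. Spots of a probe were averaged on the log2 scale without outlier spots, which stayed only where a probe had no other spot. Each member probe and that of Hhex has 1 spot, so none of these could lose a spot. RefSeq accessions were named through a GRCm38.p6 gene table (25869 of 26392 probes with an mRNA accession). Probes well above background on at least 4 of 8 arrays were tested in limma 3.58.1 (R 4.3.3), group alone, with Benjamini-Hochberg adjustment, a fit tested on simulated data. A gene is its brightest tested probe.

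The named genes are all member probes, Hhex, C1qc, up to 4 genes of smallest p per list and the 3 most alike per member, with Adgre1, Csf1r, Pecam1, Cdh5, Epcam, Spaca5 and the genes given for another probe added after their values were seen. Results for 2 genes that the rule names are not reported here. The members and lists were chosen with earlier results of these data known. The p-values measure the spread between these samples, which the labels number by mouse.

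The alternatives were 6 other scalings, the filter, outlier spots, the replicate block and left-out arrays. The normexp alternative used the deposited median intensity of spot and background, in place of the mean intensity. The authors' value table (medians 123 to 125, Spearman 0.989 to 0.995 with the scanner values) is an intensity on a linear scale, with its background correction and offset not stated. Over all tested probes, deviations correlated positively between same-numbered arrays (r 0.200, 0.422, 0.651 and 0.257), which takes the numbers as pairs. For mouse 5 neither array correlated best with its own number, while the arrays of the other numbers did.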

Additional observations from a re-analysis of the deposited data

How the results depend on the processing

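Centring on spike-in probes ended every call but 3 among all tested probes (10327 at the main setting). It gave 0 calls among the 10 member probes and 0 among the 9 genes, and Hhex differed by -1.22 (limma adjusted p = 0.14). The spike-in signal varied from 11.5 to 13.0 (log2) between arrays. Leaving out 1 array gave 6591 to 13356 calls among all tested probes and 1 to 3 among member probes and among member genes. Leaving out both arrays of mouse 3 gave 1 of each. With the replicate block 13560 probes were called, and the block ended no member call but that of Lyz1 (adjusted p = 0.0728).

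Signs that turned belonged to differences that had not passed, apart from Ctsd (-0.047) and Krt18 (-0.069) with no scaling. Arg1 was at -0.41 with median centring, -0.057 with spike-in centring, -0.52 with no scaling and -0.31 to 0.30 with 1 array left out. C1qa was at -0.36, -0.0051 and -0.47 under the same 3 scalings. With 1 array left out C1qb ranged from -0.16 to 0.082, Cd163 from -0.90 to 0.13 and Marco from -0.79 to 0.61. Without both arrays of mouse 3, C1qb was at 0.18, C1qc at 0.13 and Cd163 at 0.033. Of 812 recomputed values of single genes and pairs, 590 kept direction and side of the threshold, 202 lost their call and 20 changed sign. For a single gene, the choice of filter and the replicate block cannot change the difference, only its p. Keeping outlier spots cannot change the difference of a probe with 1 spot. Part of the 590 therefore kept direction by construction, and the tally is no measure of stability.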
